A study of Mus musculus and blank sample with 191 samples.

Results

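Glutathione S-transferases and the cytochrome P450 Cyp2f2 were described in the epithelium and stroma of the mouse uterus through 10 genes, out of 19962 targets in the deposited table. They comprise the mu-class enzymes Gstm1, Gstm2 and Gstm5, the alpha-class Gsta4, the pi-class Gstp1, the theta-class Gstt1, the omega-class Gsto1, the membrane-bound Mgst1 and Mgst3, and Cyp2f2. Gstm2 was picked because it was low in mutant epithelium, and Cyp2f2 because it was specific to epithelium, so those 2 patterns are given as descriptions with no test. All 10 passed the authors' filter on low values, which kept 14881 targets.

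The tissue came from 6 Thra1PV/+ mice (labelled PV/N, here PV) and 8 wild-type mice (labelled N/N, here WT). Thra1PV is a germline mutant allele whose product, a TRα1 receptor that does not respond to thyroid hormone, acts as a dominant negative, and every PV mouse also carries 1 normal allele. Ages, read as months, ran from 2.4 to 6.3 (median 4.1) in PV and from 4 to 9 (median 5.85) in WT mice. Regions of fixed, paraffin-embedded uterus were outlined by a pathologist on cytokeratin and smooth muscle actin stains, and whole-transcriptome probes were counted in each (GeoMx). The study states that females were matched for the estrous cycle, but the labels give no stage for a mouse. The labels name 14 animals where the design text counts 13.

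Values are those of the 95 regions of the first plate, summed for each mouse within a compartment. There were 29 WT and 31 PV epithelium regions (8 and 6 mice, with 2 to 6 and 1 to 15 regions each) and 14 WT and 21 PV stroma regions (7 and 6 mice). The sums held 61691 to 13492532 counts in epithelium and 85336 to 5195248 in stroma, and the smallest in each was PV2, a mouse with 1 region per compartment. A score set columnar epithelium genes against fibroblast genes in each region. On this plate it did not overlap between labels, at 0.295 to 3.93 in 60 epithelium and -5.91 to -2.33 in 35 stroma regions. The cut was placed midway between these 2 sets, so a full match to the labels of this plate was fixed in advance. With the same cut, only 35 of 57 epithelium and 19 of 37 stroma regions of the second plate lay on the side of their label. Its regions therefore appear below only as a comparison, with labels as deposited. Summed columnar genes (12 of 12 measured) were at 2629 to 8586 CPM (counts scaled to a common library total) in epithelium and 197 to 643 in stroma, and fibroblast genes (10 of 10) at 421 to 1995 and 3087 to 20010. Squamous genes were near the floor: 11 of 15 failed the filter, and their sum was 109 to 187 CPM in WT and 114 to 634 in PV epithelium.

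Glutathione S-transferases join the tripeptide glutathione to reactive electrophiles, which makes them more soluble and ready for export. The soluble enzymes are grouped into classes by sequence, while the microsomal ones belong to a separate membrane family that overlaps with the enzymes of leukotriene synthesis. Cytochrome P450 enzymes act one step earlier by oxidising foreign compounds. Cyp2f2 is best known from the club cells of mouse airways, where it turns naphthalene into an epoxide that transferases then conjugate. Many transferase genes are known targets of the transcription factor NRF2, which binds antioxidant response elements, and thyroid hormone receptors bind pairs of a short half-site.

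The 3 mu-class members lie in a single cluster on mouse chromosome 3 (GRCm38.p6, RefSeq), in the order Gstm5 (107895854 to 107898685, plus strand), Gstm7, Gstm6, Gstm3, Gstm2 (107981702 to 107986420, minus strand), Gstm1 (108012250 to 108017973, minus strand) and Gstm4. Cyp2f2 lies on chromosome 7 (27119955 to 27133660, plus strand). The 250 bases before the start of these 4 genes are printed because Gstm1 and Gstm2 moved together from mouse to mouse, Gstm5 is their neighbour, and Cyp2f2 had the sharpest split between single regions. Each runs 5′ to 3′ on the strand of its gene. Capitals mark the core of an antioxidant response element (TGACNNNGC on either strand) in Gstm5 and a thyroid hormone half-site (AGGTCA on either strand) in Cyp2f2.
Gstm1, chr3:108017974-108018223, minus strand: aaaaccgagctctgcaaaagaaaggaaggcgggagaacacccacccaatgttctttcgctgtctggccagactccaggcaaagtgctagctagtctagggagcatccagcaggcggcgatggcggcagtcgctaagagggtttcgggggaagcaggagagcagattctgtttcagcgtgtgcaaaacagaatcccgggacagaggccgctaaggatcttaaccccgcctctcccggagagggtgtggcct
Gstm2, chr3:107986421-107986670, minus strand: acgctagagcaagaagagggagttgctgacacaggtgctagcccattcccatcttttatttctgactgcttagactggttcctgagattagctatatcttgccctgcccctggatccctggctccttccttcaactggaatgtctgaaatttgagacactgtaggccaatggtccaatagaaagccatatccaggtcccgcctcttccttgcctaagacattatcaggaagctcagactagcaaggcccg
Gstm5, chr3:107895604-107895853, plus strand: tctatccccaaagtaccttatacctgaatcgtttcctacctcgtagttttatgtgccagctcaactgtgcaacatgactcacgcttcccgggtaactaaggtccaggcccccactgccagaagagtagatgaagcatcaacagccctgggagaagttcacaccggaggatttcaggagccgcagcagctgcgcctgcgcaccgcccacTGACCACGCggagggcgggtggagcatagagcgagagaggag
Cyp2f2, chr7:27119705-27119954, plus strand: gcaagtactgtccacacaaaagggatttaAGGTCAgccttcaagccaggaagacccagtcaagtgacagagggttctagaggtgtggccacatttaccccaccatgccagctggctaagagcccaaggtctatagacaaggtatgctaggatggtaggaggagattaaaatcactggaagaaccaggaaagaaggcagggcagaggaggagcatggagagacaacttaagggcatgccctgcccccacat
The response element core began at position -42 from the start of Gstm5, and another was found in the first of the 2 listed promoters of Mgst1, at -56. This core occurred in 10.2% of 32851 mouse promoters of the same length. The half-site began at -221 in Cyp2f2, was in no other listed promoter of a member, and occurred in 14.0% of mouse promoters. Gstm1 and Gstm2 held neither motif in these windows, nor did the other listed promoter of Gstm1, which is not printed. Gsta4 had no listed promoter and was not searched.

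Gstm2, a mu-class enzyme that conjugates small electrophiles, was chosen for its low level in PV epithelium. In the 8 WT mice it ran from 72.2 CPM (WT2) through a median of 314 to 1421 (WT1), and in the 6 PV mice from 75.1 (PV2) through 130 to 202 (PV4). The WT values did not form a single cloud. WT8 (510 CPM), WT4 (862), WT7 (962) and WT1 (1421) stood above every PV mouse, while WT2 (72.2), WT3 (73.1), WT5 (89.4) and WT6 (117) lay within the PV range or just below it. The group means were 514 CPM in WT and 132 in PV (log2 fold change -1.90 ± 0.66 SE), and no WT mouse had a level between 117 and 510. The upper 4 WT mice were aged 4.0 to 6.3 months and the other 4 from 5.4 to 9.0, so both sets held a mouse of 6.3 months. In WT epithelium the single regions followed the mice. The 14 regions of WT1, WT4, WT7 and WT8 lay between 130 and 2015 in third-quartile normalised (Q3) values. The 15 regions of the other WT mice lay between 30.1 and 83.0. In PV epithelium they did not: its 31 regions ran from 28.6 to 282, as did the 15 of PV1 alone. Variation between mice took an estimated 71.2% of the total in WT and 0% in PV epithelium. Pooled over regions the medians were 83.0 in WT and 94.2 in PV, so PV was not lower there.

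Gstm1, the neighbouring mu-class gene with broad activity against electrophiles, showed the same split. The 4 WT mice high in Gstm2 had 926 to 1880 CPM of Gstm1 and the other 4 had 87.2 to 219, against 99.4 to 475 (median 219) in PV mice. The groups overlapped, and the log2 fold change of -1.60 ± 0.69 was not called (edgeR adjusted p 0.578). In log2 CPM 5 of 6 PV mice were below the WT median of 8.82, and in CPM all were below its 572. Over the 14 epithelium values, log2 CPM of Gstm1 and Gstm2 correlated at r = 0.95, and over the 60 regions, after subtraction of each mouse's mean, at 0.89. The probes are 1 per gene and their sequences were not used here, so shared signal between such similar genes was not tested. Beyond Gstm1, the genes most like Gstm2 over the 14 mice were Zmpste24, a protease that processes prelamin A (r = 0.97), Syn2, a synapsin (0.95), Cxcl15, a chemokine of uterine glands (0.95), and Gata2, a transcription factor with a known role in progesterone response (0.94).

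**Figure D1:**
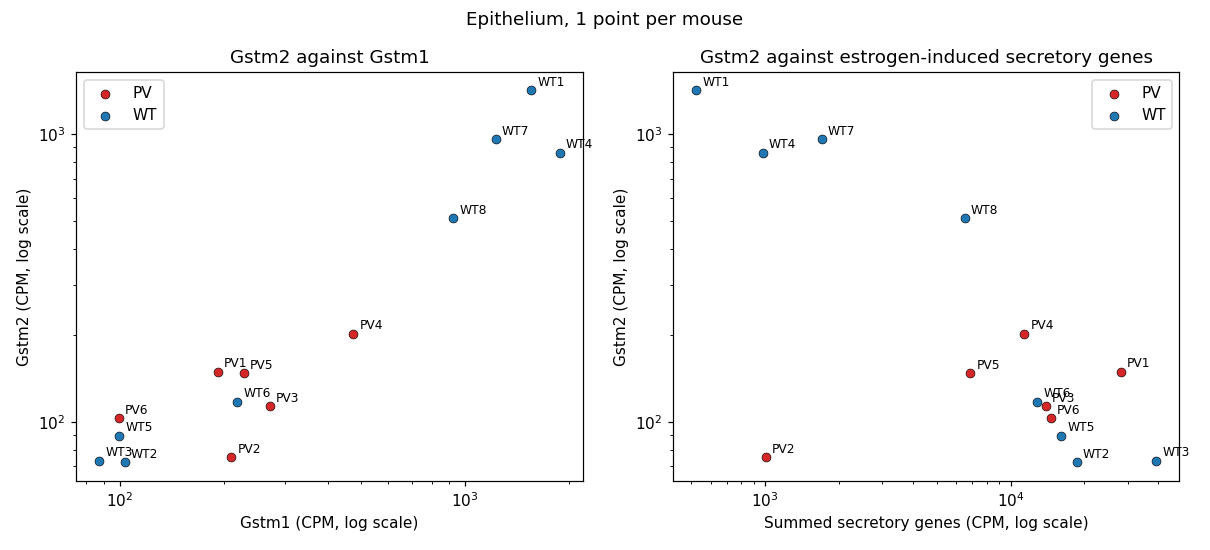
Gstm2 against Gstm1 (left) and against the summed estrogen-induced secretory genes (right) in epithelium, in CPM on log axes, with 1 point for each of 8 WT (blue) and 6 PV (red) mice. WT1, WT4, WT7 and WT8 stand apart at 510 to 1421 CPM of Gstm2 and 524 to 6516 CPM of the secretory genes, while PV2 is low in both.

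Several marker lists differed between these mice. The estrogen-induced secretory list (9 of 10 measured, among them Ltf, C3 and Lcn2) summed to 524 CPM in WT1, 979 in WT4, 1698 in WT7 and 6516 in WT8, but to 12840 to 39290 in the other 4 WT mice. In PV mice it ran from 1006 to 28110 CPM, and PV2, with the lowest sum, had only 75.1 CPM of Gstm2 from 5 counts. Across the 14 mice the sum correlated at r = -0.72 with Gstm2 and -0.77 with Gstm1. The uterine gland list (8 of 8 measured, including Cxcl15, itself among the genes most like Gstm2) summed to 266 to 891 CPM in WT and 134 to 456 in PV epithelium, and correlated at 0.72 with Gstm2. Single regions did not show this relation between mice. Region sums are in Q3 values and hold only the genes that passed the filter, which were 6 of the 8 gland genes. Over the 60 regions this smaller gland sum correlated at -0.04 with Gstm2, and at -0.31 after subtraction of each mouse's mean (-0.02 and -0.15 for Gstm1). In WT1, 2 regions with 1873 and 2015 of Gstm2 in Q3 values had gland sums of 141 and 112, and the other 2 had 135 and 163 with gland sums of 1041 and 978. The fibroblast sum ran from 617 to 1995 CPM in WT and from 421 to 1630 in PV epithelium. All 10 of its genes had a negative PV minus WT value (median log2 fold change -0.57), while 0 were called by edgeR and 4 had an unadjusted p under 0.05. The sums of both genotypes overlapped. Their sum correlated over the 14 mice at 0.54 with Gstm2 and 0.38 with Gstm1, and over the 60 regions at 0.40 and 0.42. The columnar sum correlated at -0.40 and -0.56 over the mice and at -0.55 and -0.71 over the regions. These correlations share libraries and scaling, are descriptions, and the part of glands, secretory state, fibroblast RNA or age in the level of Gstm1 and Gstm2 was not tested. As in any bulk region, fewer cells of a type and less RNA per cell cannot be told apart.

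No gene passed the test between PV and WT epithelium (0 of 14881, 0%, at an edgeR adjusted p under 0.05), where 1223 had an unadjusted p under 0.05 and DESeq2 called 28. Of the 9 members other than Gstm2, 6 had a negative and 3 a positive log2 fold change, with a median of -0.21 against -0.01 over all genes. No member had groups that did not overlap, as 0.0672% of all genes did upward and 0.0672% downward. The largest positive value was that of Mgst3, a membrane-bound transferase and peroxidase, at 0.63 ± 0.35 (edgeR adjusted p 0.662). Its highest mouse, PV6 at 136 CPM, stood above a PV median of 47.4 and a WT range of 18.2 to 92.0, and without PV6 the value was 0.23.

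For the remaining members the ranges of the groups lay over each other. Gstp1, the widely expressed pi-class enzyme, had 153 to 364 CPM in WT and 147 to 346 in PV epithelium (log2 fold change -0.21 ± 0.26). Its WT values divided as those of Gstm2 did, with 333 to 364 CPM in WT1, WT4, WT7 and WT8 and 153 to 199 in the other 4, and it correlated with Gstm2 at r = 0.80. Gstm5 had 36.3 to 259 CPM in WT and 47.8 to 191 in PV mice and differed by 0.03 ± 0.47. It divided the WT mice too, with 89.8 to 259 CPM in WT1, WT4, WT7 and WT8 and 36.3 to 51.2 in the other 4. Gsto1, which reduces dehydroascorbate, differed by -0.44 ± 0.40, Gstt1, a theta-class enzyme that acts on small halogenated compounds, by -0.27 ± 0.22, and Mgst1, a transferase of the endoplasmic reticulum, by -0.13 ± 0.24. In Gsto1 and Gstt1 the 4 WT mice high in Gstm2 lay below the other 4. They had 1563 to 3382 CPM of Gsto1 against 3581 to 8762, and 11.2 to 13.7 CPM of Gstt1 against 16.7 to 24.3. Gstt1 was near the negative-probe count in epithelium, which limits its values. The sets of WT mice were drawn from Gstm2 after its values were seen. The share of all genes that divide the WT mice this way was not counted. The split is thus not shown to be particular to these members or to Gstm1. Gsta4, which removes the lipid peroxidation product hydroxynonenal, differed by 0.30 ± 0.33, and without PV5, its highest mouse at 217 CPM, by -0.09. The edgeR adjusted p of these 6 members ran from 0.776 to 0.994. The lack of a call does not show that their levels were equal.

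**Figure D2:**
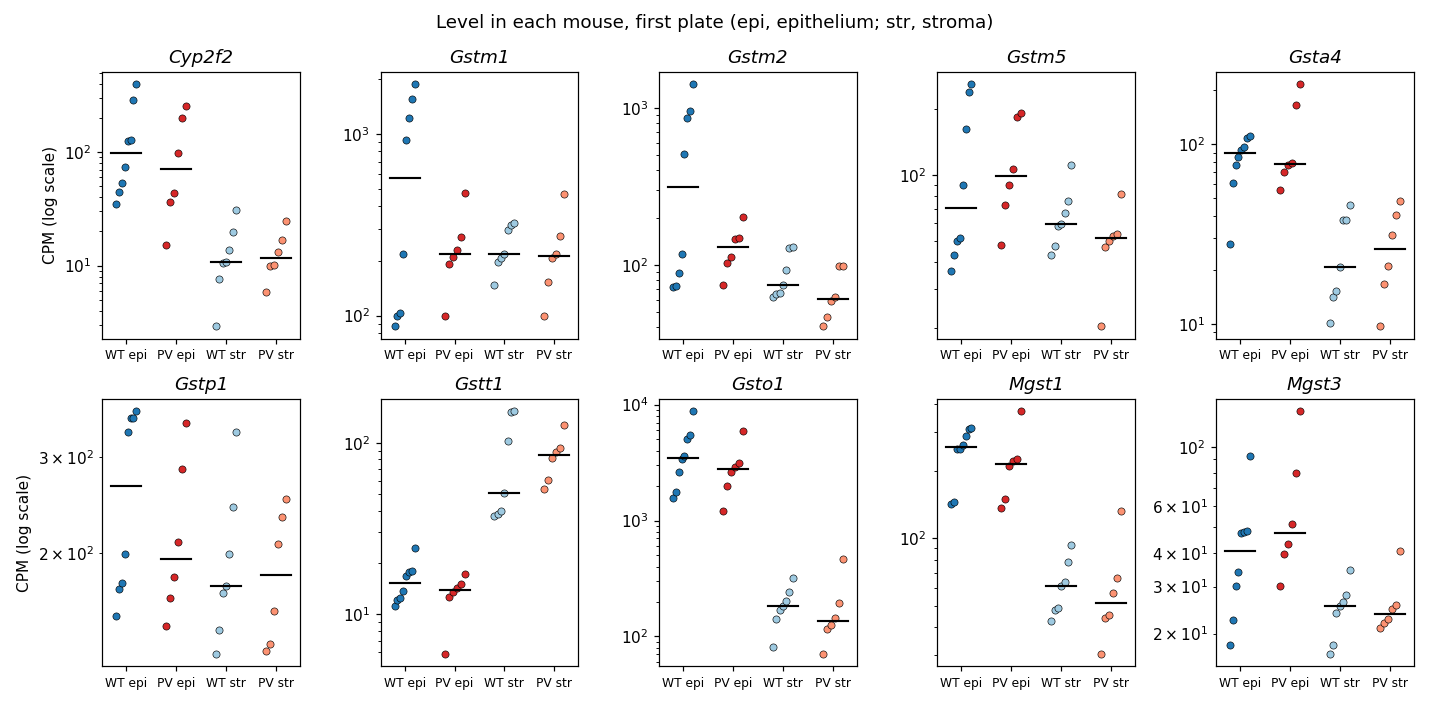
Level of the 10 genes in each mouse of the first plate, in CPM on log axes, as WT and PV epithelium (8 and 6 mice) and WT and PV stroma (7 and 6 mice). Points are mice and bars are medians; the WT epithelium points of Gstm1 and Gstm2 fall into 2 sets of 4, and Gstt1 is the only gene of the 10 lower in epithelium in all 13 paired mice.

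In stroma no member separated the genotypes either. No gene of 14881 was called (0%), 524 had an unadjusted p under 0.05, and DESeq2 called 2. Gstm2 had 62.7 to 130 CPM in WT and 40.6 to 99.0 in PV mice, a log2 fold change of -0.36 ± 0.25 (edgeR adjusted p 1.00, 4 of 6 PV mice below the WT median). Gstm1 had 147 to 323 CPM in WT and 99.5 to 466 in PV stroma and differed by -0.06 ± 0.31. WT1, WT4, WT7 and WT8, the mice with high epithelium, held 208 to 315 CPM of Gstm1 in stroma and the other 3 WT mice 147 to 323. For Gstm2, WT7 and WT4 were the highest of the WT stroma at 130 and 129 CPM and WT1 followed at 92.6, while WT8 was the lowest at 62.7. The other members lay between -0.31 ± 0.23 (Gstm5) and 0.07 ± 0.35 (Gstt1), and 0 of 10 had groups that did not overlap, against 0.0269% of all genes upward and 0.0269% downward.

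The difference between the genotype effects in epithelium and stroma was fitted within the 13 mice that had both compartments. No gene was called (0 of 14881, 0%), with 1066 at an unadjusted p under 0.05. Gstm1 gave -0.92 ± 0.80 on the log2 scale (edgeR adjusted p 0.868). For Gstm2, whose epithelium values chose it, the value was -0.96 ± 0.62 and carries no test. Mgst3 gave 0.53 ± 0.35 and the other 7 members lay between -0.32 (Gstt1) and 0.48 (Cyp2f2).

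The second plate held other regions of 13 of the same mice, so it is no independent set of animals. In its epithelium-labelled regions the PV minus WT log2 fold change was -1.89 ± 0.56 for Gstm2 and -1.44 ± 0.45 for Gstm1 (edgeR adjusted p 0.802). The mouse sums of Gstm2 were 79.4 to 142 CPM in 5 PV mice and 81.2 to 851 in 8 WT mice. In Q3 values the medians of single regions were 355 in WT7 (9 regions), 386 in WT8 (1 region) and 221 in WT1 (5 regions), and also 159 in WT6 (4 regions) and 159 in PV1 (6 regions). WT5 had a median of 62.2 with 1 region at 830. The order of the mice was thus the same only in part: WT4 had 60.9 to 89.9 in its 4 regions labelled epithelium but 240 to 269 in its 2 labelled stroma. PV5 had 1 region labelled stroma at 744. The labels of this plate are in doubt, and none was changed.

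The compartments gave calls for most members. Between epithelium and stroma of the same 13 mice, 9380 of 14881 genes (63%) were called by edgeR at an adjusted p under 0.05, 4229 (28.4%) higher and 5151 (34.6%) lower in epithelium. Of the 9 members not chosen for this contrast, 7 were higher in epithelium, 1 was lower and 1 was not called. Among the 7 is Gstm2, whose epithelium values chose it in the other contrast, so its call is no independent test. The median of these 9 was 1.00 on the log2 scale against -0.05 over all genes. The mouse values of 2 members, Gsto1 and Mgst1, did not overlap upward, as held for 2.14% of all genes, and those of Gstt1 did not overlap downward, as held for 2.83%.

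Gsto1 had the largest difference of the members. It ran from 1563 through a median of 3482 to 8762 CPM in WT and from 1202 through 2775 to 5868 in PV epithelium, against 81.1 to 320 in WT and 71.1 to 468 in PV stroma. The log2 fold change was 4.13 ± 0.21, or 17.5-fold (edgeR adjusted p 7.08e-12), and the difference within a mouse was at least 2.69 in all 13. Gstt1 was the exception among the members: it had 11.2 to 24.3 CPM in WT and 5.90 to 17.3 in PV epithelium, and 37.6 to 153 in WT and 53.9 to 128 in PV stroma. It was lower in epithelium in 13 of 13 mice by a log2 fold change of -2.43 ± 0.20 (edgeR adjusted p 3.19e-09). Its epithelium counts were only 0.956 to 3.19 times the negative-probe count, and with that count subtracted the log2 fold change was -3.04.

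Mgst1 and Gsta4 were both higher in epithelium in 13 of 13 mice. Mgst1 had 137 to 370 CPM in epithelium and 30.5 to 132 in stroma, a log2 fold change of 1.88 ± 0.15 (edgeR adjusted p 3.38e-09). Gsta4 had 27.7 to 217 and 9.69 to 48.4 CPM, a log2 fold change of 1.81 ± 0.16 (9.08e-09), and its stroma counts were 1.13 to 8.04 times the negative-probe count. Mgst3 (1.00 ± 0.18), Gstm5 (0.78 ± 0.21) and Gstp1 (0.37 ± 0.10) were each higher in 11 of 13 mice, with edgeR adjusted p from 8.72e-05 to 0.00436. Without the mouse as a block, Gstp1 lost its call (adjusted p 0.0748).

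The 2 mu-class neighbours differed in this contrast. Gstm2 was higher in epithelium in 13 of 13 mice, by 1.51 ± 0.32 on the log2 scale, though the difference ran from 0.07 in PV6 to 3.93 in WT1. Its epithelium values chose it, so this difference is given as a description. Gstm1 was higher in 6 and lower in 7 of 13 mice, from -1.88 in WT3 to 2.67 in WT4, and its log2 fold change of 0.55 ± 0.41 was not called (adjusted p 0.250). Without the mouse as a block Gstm1 was called (1.25 ± 0.44, adjusted p 0.0172). In the stroma of 13 mice Gstm1 held 99.5 to 466 CPM, so its epithelium level was above that range in WT1, WT4, WT7, WT8 and PV4 and below it in WT3 and PV6. A difference between both genes in this contrast was not itself tested.

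**Figure D3:**
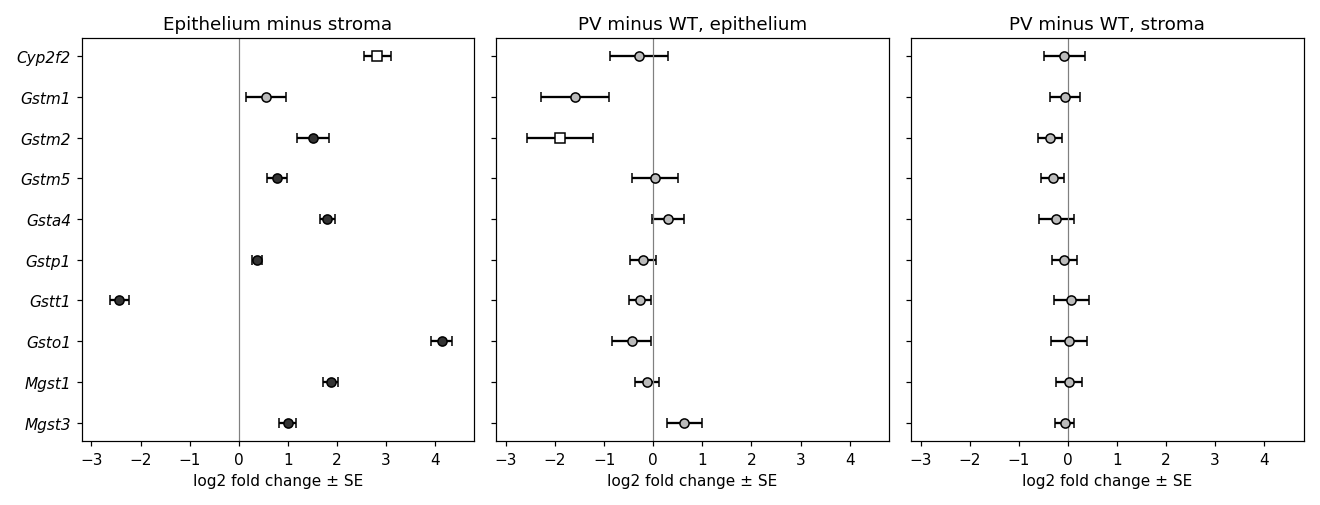
Log2 fold change with its SE for the 10 genes, as epithelium minus stroma (13 mice), PV minus WT in epithelium (6 and 8 mice) and PV minus WT in stroma (6 and 7 mice). Dark points passed an edgeR adjusted p of 0.05, grey points did not, and open squares are the values that chose Cyp2f2 and Gstm2. Only the compartment panel holds dark points, from -2.43 (Gstt1) to 4.13 (Gsto1). Gstm2 is dark there although its epithelium values chose it.

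Cyp2f2 was chosen as specific to epithelium. It had 34.6 to 399 CPM (median 99.1) in WT and 15.0 to 253 (median 71.4) in PV epithelium, and 2.90 to 31.0 in WT and 5.81 to 24.8 in PV stroma. The log2 fold change between compartments was 2.82 ± 0.27, with epithelium higher in 13 of 13 mice. Within a mouse it ran from 0.15 in WT1, with 34.6 CPM in epithelium and 31.0 in stroma, to 5.10 in WT2. PV2 had 1 count in each compartment, below its negative-probe count, so its direction carries no information. The stroma counts were 0.619 to 4.30 times the negative-probe count, so stroma lay near background. With the negative-probe count subtracted the difference was 3.67. The genes most like it over the 27 mouse and compartment values were Fam3d, a secreted cytokine-like protein (r = 0.94), Slc28a3, a nucleoside transporter (0.93), Fcgbp, a mucus-associated protein (0.93), Mid1, a ubiquitin ligase (0.93), and Adgrg1, an adhesion receptor (0.92), an order set in large part by the compartments. PV and WT mice overlapped in both compartments, with log2 fold changes of -0.29 ± 0.59 in epithelium and -0.07 ± 0.42 in stroma (edgeR adjusted p 0.951 and 1.00).

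Within the epithelium, Cyp2f2 differed more between regions of a mouse than between mice. The SD of log2 Q3 values within a mouse was 1.94 in WT and 2.23 in PV epithelium, and variation between mice took an estimated 0% and 0.664% of the total. This estimate had only 2 to 6 regions for a WT mouse. The summed counts still divided the WT mice, with 34.6 to 73.4 CPM in WT1, WT4, WT7 and WT8 and 125 to 399 in the others. The share of all genes with such a division was not counted. In PV1, 6 of 15 regions lay between 293 and 479 and 7 between 4.81 and 10.6. PV4 had 4 regions at 4.68 to 6.65 and 4 at 42.3 to 79.0, WT5 had 3 at 7.94 to 20.4 and 3 at 144 to 186, and WT7 had 2 at 7.69 to 7.86 and 3 at 53.1 to 66.3. The high and low regions of a mouse thus stood apart in both genotypes, although the labels do not separate surface epithelium from glands.

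**Figure D4:**
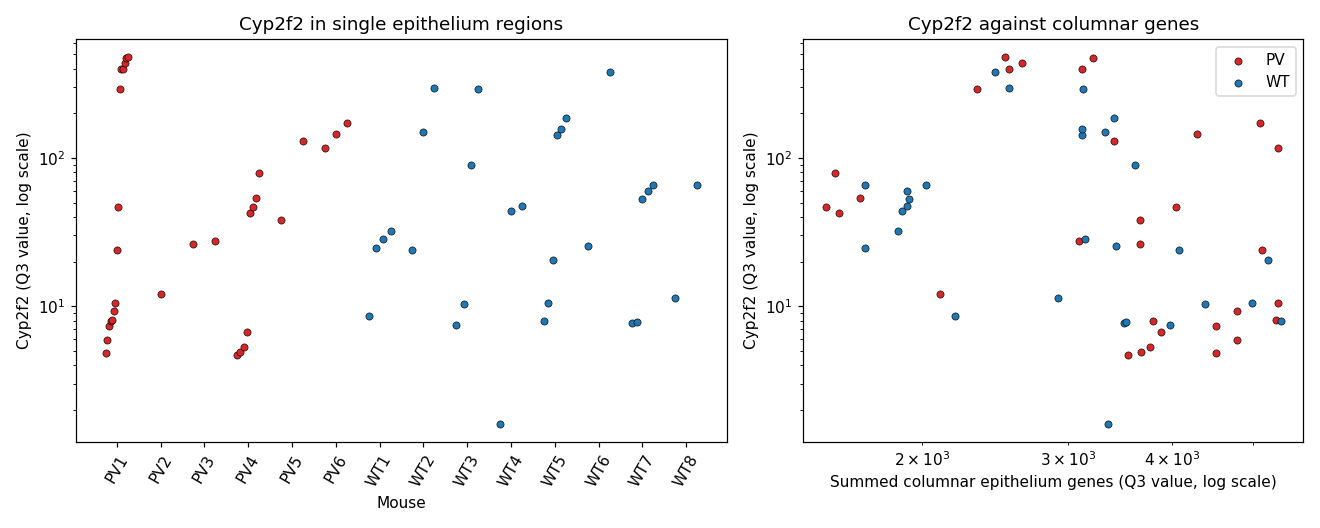
Cyp2f2 in the 60 epithelium regions of the first plate by mouse (left) and against the summed columnar epithelium genes (right), in Q3 values on log axes, with PV in red and WT in blue. Regions of PV1, PV4, WT5 and WT7 form a high and a low set, and within a mouse Cyp2f2 falls as the columnar sum rises (r = -0.83 after subtraction of each mouse's mean).

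Several of the other members varied with Cyp2f2 between these regions. After subtraction of each mouse's mean, Cyp2f2 correlated over the 60 regions with Gstp1 (r = 0.77), Gstt1 (0.70) and Gstm1 (0.64), and inversely with Gsto1 (-0.48) and Mgst3 (-0.46). The values were 0.43 for Gstm2, -0.32 for Gsta4, 0.17 for Mgst1 and 0.0032 for Gstm5. Gstt1 was near the negative-probe count in epithelium, and the part of background in its correlation was not tested. The region sums held only genes that passed the filter, 8 of the secretory and 6 of the gland list. Gsto1 rose with Gsta4 (0.79), with the columnar sum (0.78) and with the secretory sum (0.82), and fell with the gland sum (-0.80). Cyp2f2 did the reverse, at -0.83 with the columnar, -0.73 with the secretory and 0.50 with the gland sum, and Gstp1 followed it at -0.75 and -0.71 with the first pair. After the same subtraction the fibroblast sum correlated at 0.43 with Cyp2f2, 0.52 with Gstp1, 0.43 with Gstt1 and 0.42 with Gstm1, and the part of fibroblast RNA in these regions was not tested. In PV4 the 4 regions low in Cyp2f2 held 2210 to 3385 of Gsto1 and 47.7 to 68.4 of the gland sum, and the 4 high ones 307 to 559 and 206 to 313. In WT7 the 2 low regions held 3186 and 3489 of Gsto1 and the 3 high ones 304 to 609. Neither Gsto1 nor the gland sum followed in every mouse. In PV1 the gland sum was 163 to 426 in the 6 high regions and 50.7 to 295 in the other 9. Gsto1 in PV1 was 2365 to 3613 in the high regions and 2204 to 4582 in the others. In WT3 the region highest in Cyp2f2 (295) also had the highest Gsto1 (6590).

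Between mice the order was another one. Over the 14 mouse sums Cyp2f2 correlated positively with Gsto1 (r = 0.78) and with the secretory sum (0.70), opposite to the sign within mice. The secretory sum of a mouse held 9 genes, against 8 in the regions. Negative correlations were those with Gstm5 (-0.66) and Gstm1 (-0.56). Gstm1, Gstm2, Gstm5 and Gstp1 correlated with each other at 0.58 to 0.95. In stroma, Gstm2, Gstm5 and Gstp1 correlated at 0.73 to 0.82, while Gstm1 and Gstm2 were at 0.43. These values share libraries and scaling, have 14 and 13 points, and are given without a test.

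**Figure D5:**
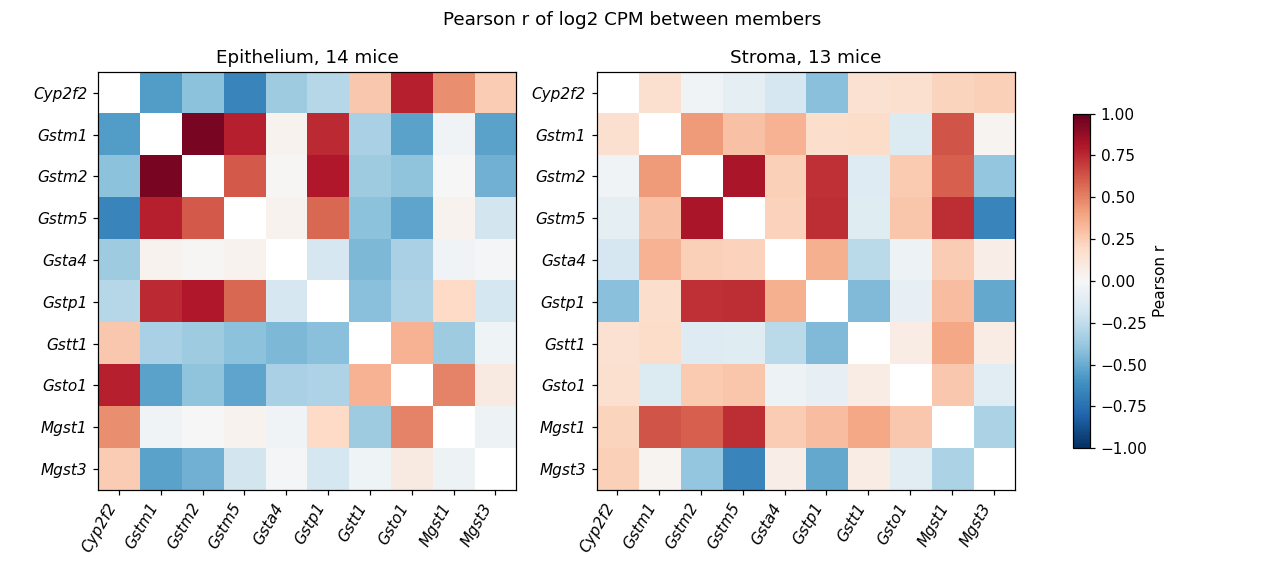
Pearson r of log2 CPM between the 10 genes over 14 mice in epithelium (left) and 13 in stroma (right), in colour from -1 to 1. In epithelium the pair Gstm1 and Gstm2 is highest (0.95), in stroma the pair Gstm2 and Gstm5 (0.82).

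The wider pathway was read from 4 lists. Of 16 measured further transferases and relatives, 7 were higher and 4 lower in epithelium than in stroma, with a median log2 fold change of 0.11; the 11 called genes are 68.8% of the list against 63% of all genes. The lowest p were those of Gstt3 (0.91 ± 0.11) and Gstm7 (2.84 ± 0.41), both higher in epithelium, and Ptges, a prostaglandin E synthase (-1.05 ± 0.16), with edgeR adjusted p from 1.51e-06 to 1.87e-05. Of 24 genes of glutathione metabolism, 13 were higher and 6 lower in epithelium (79.2% called, median 0.64). Gclm, the modifier subunit of the rate-limiting enzyme of glutathione synthesis, was higher by 1.35 ± 0.09, Gpx2, a glutathione peroxidase known from gut epithelium, by 2.70 ± 0.19, and Ggt5, a gamma-glutamyl transferase at the cell surface, was lower by -2.91 ± 0.16 (edgeR adjusted p at most 4.80e-10).

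Of 19 genes of the NRF2 list, 9 were higher and 5 lower in epithelium (73.7% called, median 0.32). G6pdx, which supplies NADPH, was higher by 1.60 ± 0.13, Prdx1, a peroxiredoxin, by 1.44 ± 0.12, and Taldo1, of the pentose phosphate pathway, by 1.29 ± 0.11. Of 22 cytochrome P450 and related oxidation genes, 7 were higher and 7 lower (63.6% called, median -0.21), led by Fmo1 (-2.36 ± 0.18), Cyp2d22 (-1.84 ± 0.16) and Cyp4v3 (-1.42 ± 0.16), all lower in epithelium. The edgeR adjusted p of these 6 genes were at most 3.08e-07. Fmo1 is a flavin monooxygenase, another kind of oxidising enzyme.

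Between PV and WT mice 0 genes of the 4 lists were called in either compartment by edgeR. In epithelium, 13 of 16 further transferases, 19 of 24 glutathione genes and 18 of 22 oxidation genes had a negative log2 fold change. Their medians were -0.17, -0.20 and -0.14. Of 19 NRF2 genes, 15 had a positive one (median 0.19), and the median over all genes was -0.01. These tallies were not tested, and the genes of a list share libraries and scaling. The lowest p of the glutathione list was that of Gpx3, a secreted glutathione peroxidase, at -1.86 ± 0.52 in epithelium and -1.55 ± 0.72 in stroma (edgeR adjusted p 0.375 and 1.00). Nfe2l2, which encodes NRF2, gave 0.52 ± 0.18 and Txnrd1, a thioredoxin reductase, 0.57 ± 0.24 in epithelium (adjusted p 0.511 and 0.575). Further transferases with the lowest p were Hpgds, a prostaglandin D synthase (-1.13 ± 0.52), and Gstz1 (-0.81 ± 0.37). Cyp4b1, a P450 enzyme known from lung, gave -0.99 ± 0.38 (adjusted p 0.546). In stroma the medians of the 4 lists lay between -0.12 and 0.05.

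The PV and WT difference in Gstm1 and Gstm2 moved with the fit. In a limma fit to Q3 values averaged over the regions of a mouse as logarithms, the epithelium difference shrank to -0.90 for Gstm2 and -0.70 for Gstm1. That fit differs from the sums in tool, scaling and averaging, and which of these moved the value was not tested. Averaged as logarithms, the mouse sums themselves gave a mean log2 CPM of 8.11 in WT and 6.98 in PV epithelium for Gstm2. For Gstm1 these means were 8.65 and 7.80. With age as a covariate the edgeR difference grew to -2.33 for Gstm2 and -2.11 for Gstm1 (edgeR adjusted p 0.205 for Gstm1). Genotype is partly confounded with age, since PV5 and PV2 are the youngest and WT2 and WT3 the oldest mice.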

How the data were processed

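Regions of mouse uterus were profiled with GeoMx whole-transcriptome probes. The deposited table of 19962 targets holds expected counts from the authors' pipeline, whose lowest value is 1, and a negative-probe row with 0.000527% of the total, which was left out of library sizes. The deposited Q3 table holds signal values that the authors divided by a third-quartile factor per region. The submitters' processing notes name mm10, R 4.1.2 and Space Ranger. Other deposited files were not used here.

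Counts of the first plate were summed per mouse and compartment and rounded. The test was edgeR 4.0.16 (quasi-likelihood, TMM) in R 4.3.3. It was two-sided, and p-values were adjusted by Benjamini-Hochberg over 14881 targets with a threshold of 0.05. Compartments were compared with the mouse as a block, taken from the animal number in the labels. As a check of the pairing, both compartments of 1 mouse deviated together: r over genes was 0.160 to 0.526 with a median of 0.296, and exceeded 0.1 for 13 of 13 mice. Levels are CPM after TMM scaling, and log2 CPM uses a prior count of 2. Q3 values were taken as log2 with a pseudocount of 1. The probes are 1 per gene, so levels of different genes were not compared, and the depth of a sum limits its precision.

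The named genes are the 10 members, for each further list and comparison the called genes, or the 3 of lowest p where 0 or more than 6 were called, and the 5 genes most alike to Gstm2 and to Cyp2f2; not all are printed. Members and lists were chosen with earlier results of these data known. Alternatives were DESeq2 1.42.0, upper-quartile scaling, filterByExpr, no filter, subtraction of the negative-probe count, limma 3.58.1 on per-mouse means and over regions, both plates, the second plate alone, age as a covariate, mice with at least 2 regions, no replicate block, and each mouse left out. The scripts were tested on simulated data. Promoter sequences and gene positions are from RefSeq on GRCm38.p6.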

Additional observations from a re-analysis of the deposited data

Results flagged for a closer look

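In 3 of 40 groups of mouse values, 1 mouse stood far from the others by Dixon's ratio, a number that chance can give, since the ratio marks about 1 in 20 groups. Gsta4 in WT epithelium was lowest in WT2 at 27.7 CPM, with the next mouse at 60.9. Gstt1 in PV epithelium was lowest in PV5 at 5.90 CPM (4 counts), with the next at 12.6. Mgst3 in PV stroma was highest in PV2 at 40.6 CPM, with the next at 25.5, and PV2 is the mouse with a single region of 85336 counts.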

How the results depend on the processing

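Of 970 alternative values of the members, 862 kept their sign and their side of the threshold, and 94 changed sign with no call under either setting. In PV against WT epithelium, edgeR's count of 0 became 28 with DESeq2, 10 with age as a covariate and 1 with limma over regions, and ran from 0 to 6 with a mouse left out (6 without PV6 and 6 without WT5). In stroma it became 2 with DESeq2 and 2 with limma over regions, and ran from 0 to 1 (1 without PV4). The genotype by compartment count of 0 became 1 with DESeq2 and 65 with limma over regions. No member was among the calls between genotypes under these settings. Between compartments 5631 genes were called over both plates and 0 on the second plate alone, whose labels conflict with the markers, against 8875 to 9383 with a mouse left out. Without the replicate block the paired count fell from 9380 to 7952, Gstm1 was called and Gstp1 was not, and in the interaction it stayed at 0. The second plate alone gave opposite signs for Gsta4 (-0.074), Gstt1 (0.030) and Mgst3 (-0.11), none of them called. Over both plates Gstm2, Gstm5 and Gstp1 lost their calls (0.92, 0.35 and 0.21). The cause of these changes was not tested, apart from the smaller number of mice when 1 is left out. Counts near the negative-probe level limit Cyp2f2 in stroma and Gstt1 in epithelium.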
